A study of Mus musculus with 12 samples.

Results

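ESRP1 contacts in the last 1000 nt of protein-coding genes were examined in mouse epidermis. Sites of a strand separated by no more than 10 nt formed a region, and a region was kept when it held sites of all 3 lists that the authors deposited. Its middle had to lie in a single protein-coding span of at least 4000 nt (GRCm38 annotation), on the strand with most sites in that span, and within 1000 nt of the 3′ end on that strand. This rule gave 1087 regions in 917 genes, out of 9649 regions found in all 3 lists. Protein-coding spans of that length held 6002 of these, so that end regions were 18.1% of them. The regions were chosen by position, strand and presence in all lists, and these values are given as descriptions, with no test.

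Every library came from back skin epidermis of pups on postnatal day 1 whose endogenous ESRP1 carries a FLAG tag on both alleles (Esrp1FLAG/FLAG). The labels name 6 FLAG immunoprecipitations and 6 inputs, biological replicates 1 to 6, cut from the membrane between 75 and 140 kDa, and no library of untagged animals was analysed here. The assay, enhanced crosslinking and immunoprecipitation (eCLIP), fixes a protein to the RNA it touches with ultraviolet light and reads the contact from where reverse transcription stops. List 1 was called on replicates 1 and 2 with input, list 2 on replicates 3 and 4, and list 3 on replicates 5 and 6. It is unstated whether a replicate is 1 pup or a pool.

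ESRP1 is an RNA-binding protein of epithelial cells, known for switching exons of genes such as those of cell adhesion toward their epithelial form, and its preferred RNA is rich in UGG. The last stretch of a gene usually holds the end of the coding sequence and the 3′ untranslated region, where proteins and miRNAs act on stability, transport and translation of the mRNA. The annotation used here gives the extent of a gene without exons, so whether a region lies in coding sequence, untranslated region or intron was not assigned.

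Sequence is shown for 1 of the 1087 regions, which lies inside a RefSeq promoter window of a neighbouring gene (GRCm38.p6). It is shown to let the letters under ESRP1 sites be seen, not as typical of the set. It is written 5′ to 3′ on the strand of the sites, and capitals mark nucleotides with a site in at least 1 list.
Zfp512b, chr2:181582162-181582191, minus strand, 73 nt from the gene end: cctggcccggaGtggtGcGGtggtgggcca
Every capital is a G. The letters TGG, searched on the strand shown only, occurred 4 times in this stretch. At least 3 TGG were present in 2.07% of the 328510 consecutive 30-base stretches of all promoter windows, as written in the table. AATAAA, the usual polyadenylation signal, was not among these letters and was in 1.09% of the promoter stretches. A single stretch says nothing about the letters in the other end regions. The Zfp512b region, in a zinc finger gene, held 1, 1 and 4 sites in lists 1, 2 and 3, with highest scores of 48.0, 22.3 and 34.9.

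List 2 stood apart before any comparison. Of the 1087 end regions, 46.8% held a single site in list 2, against 14.7% in list 1 and 18.7% in list 3. The regions took up 3976 of the 73602 sites of list 1, 1994 of the 40014 of list 2 and 3269 of the 53864 of list 3. Library depth is unknown, as read counts are not part of the lists. The strand taken from the sites was checked against RefSeq, whose promoter table gives a strand for the genes of 875 end regions. It matched for 868 of them (99.2%, 95% exact binomial interval 98.4 to 99.7), so the label of a 3′ end held for nearly all regions that could be checked. Interior regions, more than 1000 nt from both ends, matched in 3118 of 3469 (89.9%, 88.8 to 90.9), an interval that does not reach that of end regions, and regions of the first 1000 nt in 416 of 424 (98.1%, 96.3 to 99.2). The RefSeq strand took no part in the rule. These intervals and all others cover counting error only, and regions of 1 gene are not independent.

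The density of regions rose toward the annotated 3′ end and fell at it. Around the ends of 14060 protein-coding spans with a RefSeq strand, with or without sites, the density was 66.7 regions per Mb in the last 1000 nt and 36.4 per Mb in the 1000 nt before these. It was 2.96 per Mb in the 1000 nt past the end, over length free of any annotated gene. The second 100 nt counted inward held most, with 158 regions and 123 per Mb, the last 100 nt held 106 and the first 100 nt past the end held 4. Few regions thus lay past the annotated end. The 5′ end had another shape: 95.5 regions per Mb in the outermost 100 nt, 31.6 per Mb over the first 1000 nt and 7.19 per Mb in the next 1000 nt. The profile by 100 nt bins shows a narrow rise at the 5′ end and a broad one at the 3′ end. Exon content differs between these zones and its part in the densities was not tested.

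**Figure D1:**
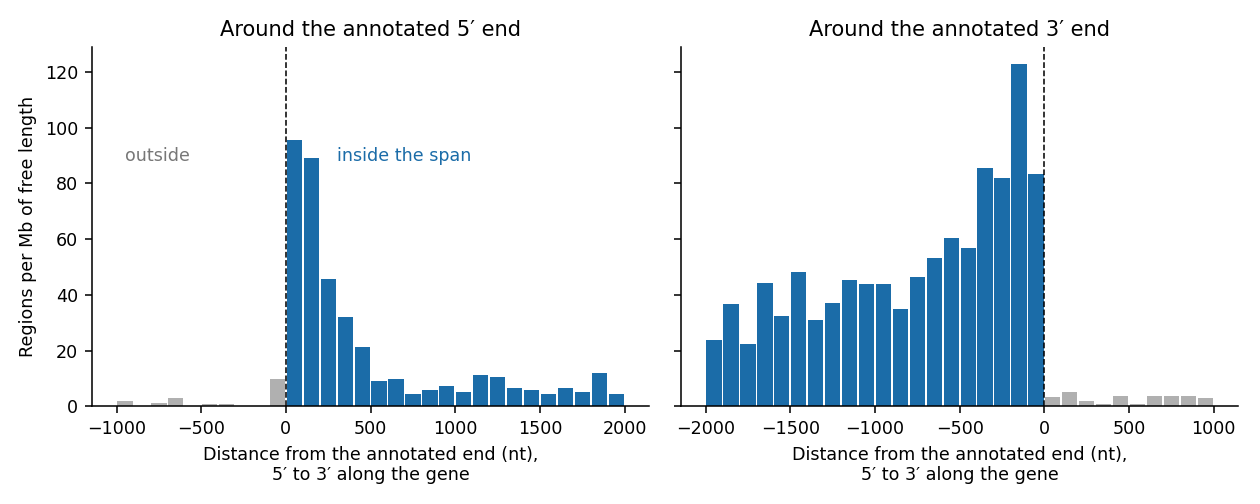
Regions found in all 3 lists per Mb of free length (y axis) in 100 nt bins by distance from the annotated 5′ end (left) and 3′ end (right) of 14060 protein-coding spans (x axis, nt, 5′ to 3′). Blue bars are inside the span and grey bars outside it; the highest bar at the 3′ end stands at 123 per Mb, and bars past the end stay low.

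Among the end regions the median distance to the end was 350 nt, with quartiles at 160 and 628.5 nt and a range of 14 to 999 nt. The last 100 nt held 149 regions, the next 100 nt 184 and the outermost 100 nt of the window 71. Of all end regions, 605 (55.7%) lay less than 400 nt from the end. Their scores and those of the 482 further away differed by less than 1 percentile point in each list: the mean percentile of the highest score was 75.9 against 75.6 in list 1, 65.9 against 65.2 in list 2 and 72.9 against 73.3 in list 3. Mean sites per region were 3.79 against 3.50, 1.89 against 1.77 and 3.09 against 2.90 in lists 1, 2 and 3, more near the end in each list. The regions were short, with a median length of 8 nt and quartiles at 4 and 12 nt.

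The share of regions at 3′ ends differed between lists. Of each list's own regions under such spans, 16.0% were at the 3′ end in list 1 (15.5 to 16.5), 12.4% in list 2 (11.8 to 12.9) and 19.0% in list 3 (18.4 to 19.6), which is 15.8% ± 3.33 (SD, n = 3 lists). List 2 was lowest, and none of the 3 intervals overlapped. Union regions with sites of 1 list had 12.8% at 3′ ends (12.3 to 13.3), those of 2 lists 16.9% (16.0 to 17.8) and those of all 3 lists 18.1% (17.1 to 19.1). The interval of regions of 1 list lay below the others. The share in the first 1000 nt moved less, from 8.02% to 7.99% and 8.46%.

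**Figure D2:**
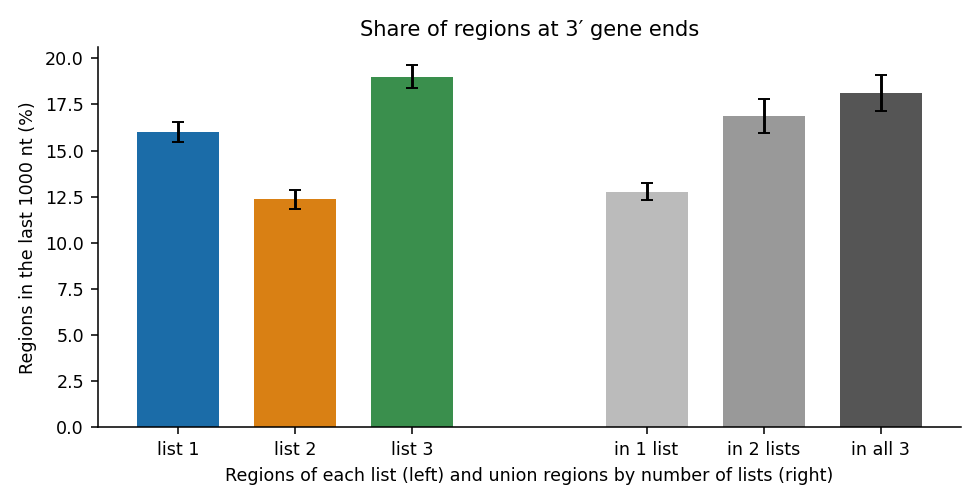
Share of regions in the last 1000 nt of protein-coding spans (y axis, percent) for the regions of each list (left) and for union regions by the number of lists they occur in (right), with 95% exact binomial intervals as bars. List 2 stands lowest of the lists at 12.4%, and regions of all 3 lists stand at 18.1%.

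End regions were compared with the 4407 interior regions and the 508 regions of the first 1000 nt in sites, scores, recurrence and shared nucleotides. The rule used presence in all lists, so recurrence and shared nucleotides are partly set by it. With 3 lists, an exact sign-flip permutation test over lists cannot go below p = 0.25, so no comparison could pass 0.05. End regions held 3.66, 1.83 and 3.01 sites on average in lists 1, 2 and 3, against 3.72, 1.98 and 3.15 in interior regions. The mean difference was -0.12 ± 0.049 (SD, n = 3 lists; lower in 3 of 3 lists, exact p = 0.25), a small gap beside the differences between lists. Against the first 1000 nt, with 3.69, 1.91 and 3.25 sites, it was -0.12 ± 0.11 (lower in 3 of 3 lists, n = 3, exact p = 0.25). Without list 3 the difference from interior regions turned to 0.042. It shrank to -0.021 with the gene strand taken from RefSeq (sign-flip test, exact p = 0.50). With the 50% of sites with the highest scores it was -0.0028, so its size depended on the processing.

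The highest score of a region, as a percentile within its list, averaged 75.8, 65.6 and 73.1 for end regions in lists 1, 2 and 3. It averaged 74.3, 67.5 and 69.6 for interior regions, a difference of 1.02 ± 2.74 percentile points (higher in 2 of 3 lists, n = 3, exact p = 0.75). Here list 2 went the other way. Against the first 1000 nt (72.0, 65.2 and 69.7) the difference was 2.46 ± 1.85 (higher in 3 of 3 lists, n = 3, exact p = 0.25). Across end regions, highest scores of a pair of lists correlated with Spearman's rho of 0.68 (lists 1 and 2), 0.77 (lists 1 and 3) and 0.65 (lists 2 and 3) over 1087 regions, against 0.66, 0.73 and 0.60 over interior regions. These points were chosen for presence in every list and share genes, so the correlations are descriptions.

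Recurrence was measured in a list left out when regions were fixed from the other lists. Presence in all lists is part of the rule, so nearly the same regions recurred each time. Recurring interior regions, for example, numbered 4408, 4406 and 4400 with lists 1, 2 and 3 held out. The share thus varied mainly with the number of regions the other lists gave, and the 3 values are not independent. When regions, strand and position were fixed from lists 2 and 3, 1098 of 1233 end regions had a site of list 1 within 10 nt (89.1%, 87.2 to 90.7), against 88.2% of interior regions. With list 3 held out, 1084 of 1293 end regions recurred (83.8%, 81.7 to 85.8), against 70.6% of interior regions (69.4 to 71.7). With list 2 held out it was 1091 of 1823 (59.8%, 57.6 to 62.1), below the 64.9% of interior regions (63.7 to 66.0). The direction thus depended on the list. Over the 3 lists the difference was 3.03 ± 9.32 percentage points (higher in 2 of 3 lists, n = 3, exact p = 0.75). Regions of the first 1000 nt recurred in 81.0%, 67.2% and 78.2% with lists 1, 2 and 3 held out. The difference from them was 2.12 ± 8.30 points (higher in 2 of 3 lists, n = 3, exact p = 0.75).

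**Figure D3:**
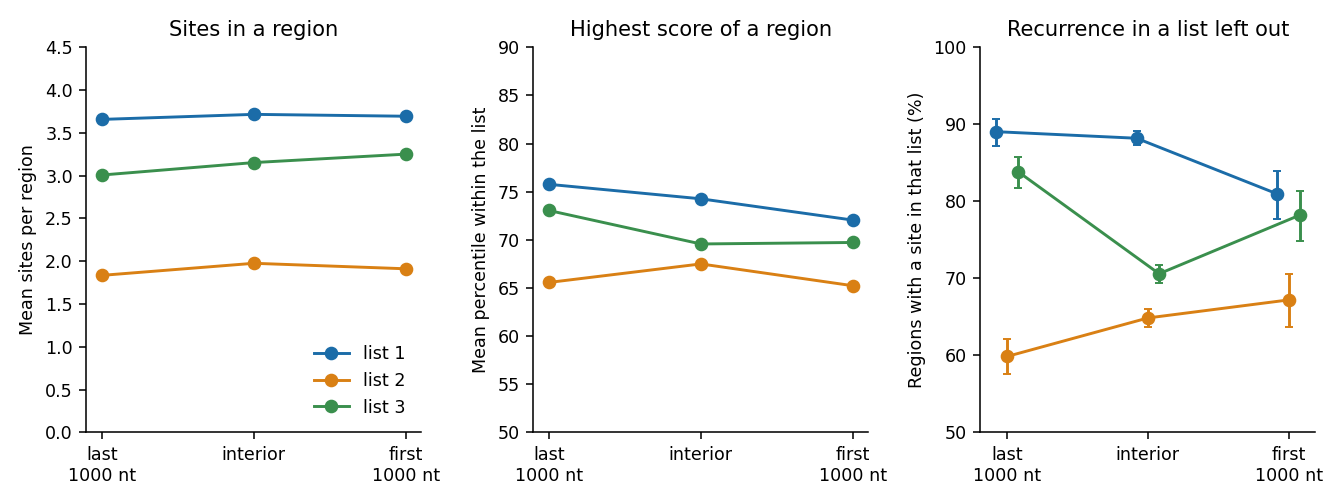
Mean sites per region (left), mean percentile of the highest score of a region within its list (middle) and percent of regions with a site in a list left out of their choice (right, bars are 95% exact binomial intervals) for regions in the last 1000 nt, interior regions and regions in the first 1000 nt. Each colour is a list, and list 2 lies lowest at every position in each panel. In the right panel list 3 gives end regions 83.8% against 70.6% for interior regions while list 2 gives 59.8% against 64.9%.

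How often the lists share a nucleotide is partly set by the rule, since a region had to hold sites of every list and was short, so the difference between positions is the value of interest. Of the sites in end regions, 36.4% of list 1, 72.7% of list 2 and 44.3% of list 3 fell on nucleotides with a site in all lists, against 36.5%, 68.7% and 43.0% in interior regions. The difference was 1.72 ± 2.06 points (higher in 2 of 3 lists, n = 3, exact p = 0.50). The shared nucleotides were the same in each list, 1449 in end regions and 5982 in interior regions. Each share is this number over the sites of a list, so the 3 differences are not independent. They also depend on the sites per region, which were fewer in end regions in each list. The high share in list 2 goes with its few sites per region.

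Most genes had 1 end region. Of the 917 genes, 764 (83.3%) had 1, 136 had 2 and 17 had 3. They were 5.19% of the 17676 protein-coding spans of at least 4000 nt and 25.1% of the 3654 such spans with any region found in all 3 lists. Other regions were counted under the same span and strand rule. In 479 genes (52.2%) none lay outside the last 1000 nt, 394 (43.0%) also had an interior region and 89 (9.71%) one in the first 1000 nt. Genes with a region in the first 1000 nt were similar: of 463, 250 (54.0%) had none elsewhere and 169 (36.5%) also had an interior region. Neighbouring end regions of a gene lay a median of 248 nt apart (170 pairs, range 14 to 867 nt). The spans of the 917 genes had a median of 24231 nt, close to the 24294 nt of all spans of at least 4000 nt, and shorter than the 40334 nt of genes with any region in all 3 lists. Another annotated gene covered 32 end regions (28 long noncoding RNA genes and 4 pseudogenes), and these can belong to either gene.

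The 17 genes with 3 end regions encode proteins of many kinds, and the 10 with most sites are described. Flg2, which encodes the cornified layer protein filaggrin-2, had 7, 2 and 7 sites in lists 1, 2 and 3 at chromosome 3, 93220591 to 93220599. It had 4, 3 and 4 at 93220937 to 93220941, and 2, 1 and 2 at 93221249 to 93221253, 126 nt from the end. The middle region was the strongest, with highest scores of 194, 109 and 191. Krt15, a keratin of basal cells, had 9, 3 and 7 sites 852 nt from its end at chromosome 11, 100132605 to 100132617. The other Krt15 regions lay close together, 356 and 372 nt from the end, at 100132114 to 100132117 (3, 1 and 3 sites) and 100132128 to 100132135 (3, 1 and 2 sites). A joining distance of 20 nt would merge these neighbours, so the count of Krt15 regions depends on that distance. All Krt15 regions ranked high, with mean score percentiles of 96.9 to 97.2. Blmh, whose product bleomycin hydrolase breaks down filaggrin peptides, had regions 867, 557 and 373 nt from its end with 5, 1 and 4, then 3, 2 and 3, then 5, 3 and 3 sites. None of its regions lay in the last 300 nt. Emp1, an epithelial membrane protein gene, had 7, 5 and 6 sites 121 nt from its end and fewer in its regions 480 and 750 nt away.

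Slc34a2, a sodium-phosphate cotransporter gene, held most sites of the genes with 3 end regions, with 6, 5 and 6 at 79 nt, 4, 2 and 3 at 455 nt and 5, 1 and 2 at 664 nt from the end. Chmp4b, an ESCRT-III subunit gene, had its 3 regions between 579 and 799 nt from the end and list 2 gave 1 site in each. Kif5b, the kinesin-1 heavy chain gene, had 7, 1 and 4 sites at 619 nt and a close pair at 75 and 97 nt. A joining distance of 20 nt would merge that pair too. Vcp, encoding a AAA-type ATPase of protein quality control, had 7, 1 and 6 sites at 288 nt and 2 small regions beyond 600 nt. Tprgl had regions at 265, 324 and 865 nt and AI661453 at 65, 250 and 721 nt. The remaining genes with 3 end regions were Arf1, Bcl9, Grhl1, Kprp, Mark2, Spint2 and Sppl3. In the map of these genes the lists fall on the same narrow stretches, a pattern that the choice of regions with sites of all lists brings with it.

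**Figure D4:**
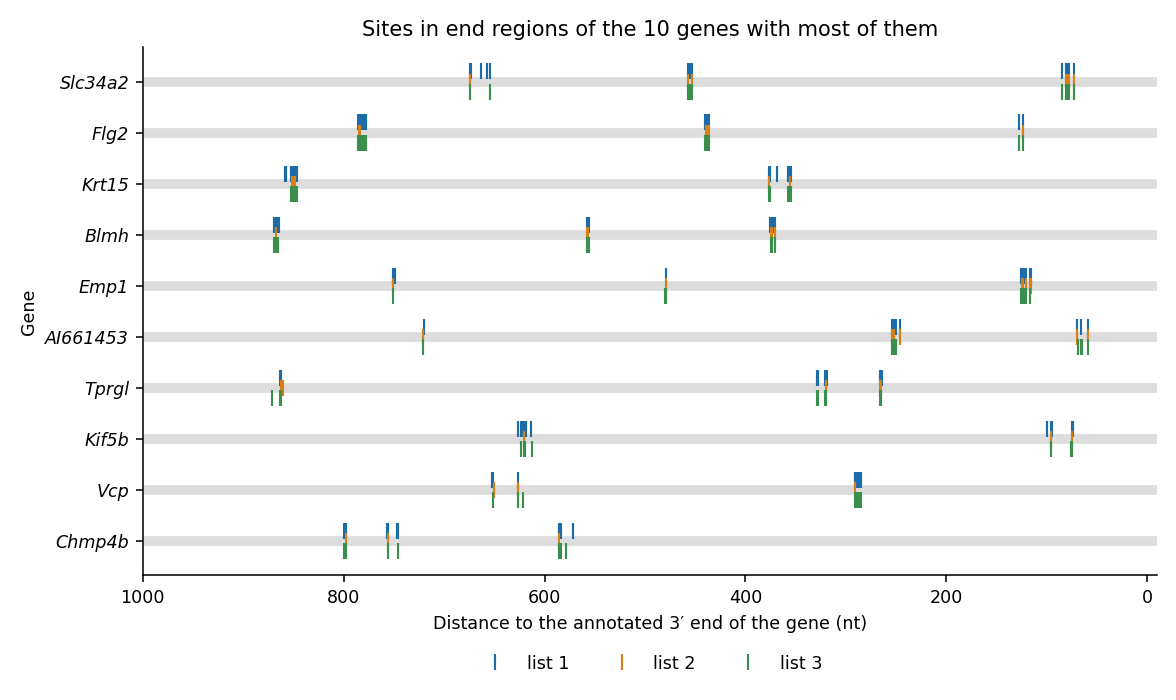
Sites (ticks) of lists 1, 2 and 3 in the end regions of the 10 genes with most of them, by distance to the annotated 3′ end (x axis, nt, end at the right). Each grey line is the last 1000 nt of a gene; Slc34a2 shows clusters at 664, 455 and 79 nt, and Blmh none in its last 300 nt.

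Ranked by the mean percentile of the highest score, the first end region was in Eif5a, which encodes a translation factor, at chromosome 11, 69917335 to 69917342, 626 nt from the end. It held 5, 4 and 5 sites in lists 1, 2 and 3 with highest scores of 243, 207 and 273. Dsg1a, a desmosomal cadherin gene, followed with 6, 3 and 5 sites at chromosome 18, 20343008 to 20343021, 339 nt from the end, and scores of 306, 149 and 232. Scores in list 2 were the lowest of the 3 for Dsg1a and Eif5a, though not for Avpi1, the third (191, 237 and 216), at chromosome 19, 42123679 to 42123687. Tmed9, a cargo receptor gene of the early secretory path, had scores of 257, 168 and 215 at chromosome 13, 55597471 to 55597475. Hsd17b12, an enzyme gene of very-long-chain fatty acid synthesis, had 245, 156 and 227 at chromosome 2, 94032787 to 94032800, 96 nt from the end.

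The next were Tesc, a calcium-binding protein gene (68 nt from the end, scores 176, 245 and 202), Gnb2, a G protein beta subunit gene (127 nt), Ubn1, a histone chaperone subunit gene (72 nt), Perp, a desmosomal membrane protein gene (528 nt), and Cab39, a scaffold gene of the LKB1 kinase (214 nt). Their mean percentiles ran from 98.6 to 98.9. Gnb2, Cab39 and Tmed9 each had a second end region within 200 nt of the first. By number of sites, Oaz2, an antizyme gene of polyamine control, came first with 10, 4 and 10 at chromosome 9, 65690233 to 65690243, 62 nt from the end. Tdg, a DNA glycosylase gene, had 8, 7 and 7 sites, and its list 2 count was the highest among the 5 regions with most sites. Cnn3, a calponin gene, had 9, 6 and 7, Copg2, a COPI coat gene, 7, 5 and 8, and Klf6, a Krüppel-like factor gene, 8, 6 and 6. Copg2 and Klf6 held 20 sites over the lists, a total shared by regions in Cox6c, Cyp4f17, Fam160a1 and Tpp2. Their places among the 5 thus rest on a tie. Over all end regions the sites of the lists together ran from 3 to 24 with a median of 8, and the mean percentile from 13.2 to 99.4 with a median of 75.3.

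The regions nearest the annotated end were in Fads2b (14 nt), Gm7932 (16 nt), Hif1an, a hydroxylase gene that acts on HIF1 (23 nt), Cbx3, a heterochromatin protein gene (41 nt), and Pgls, a pentose phosphate enzyme gene (41 nt). Pgls had 7, 3 and 6 sites and Hif1an 1 in each list, so these neighbours in position differed in sites. Over all end regions, those in the last 100 nt held 9.68 sites on average over the lists together, against 7.89 to 8.79 in the other 100 nt bins. At the other limit, Klk11, Pcyox1 and Psmd13 lay 999 nt from the end with 8, 8 and 5 sites over the lists. Just outside were Fyttd1 at 1000 nt, Kdm7a at 1001 nt and a region of Eef2 at 1002 nt with 11, 15 and 9 sites.

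End regions were present in genes of cell adhesion, the cornified envelope, translation and epidermal transcription. The values to set beside each list are 5.19% of all long protein-coding spans, 25.1% of those with any region in all 3 lists, and a median mean percentile of 75.3 over all end regions. Lists were chosen with earlier results of these data known, expression was not measured, and no list was tested. The lists hold picked genes and not whole families. Rps3a1, Rps10, Rpl22, Eif3f, Eif3h, Krt6b, Krt71, Krt78, Krt79 and Kprp, for example, had end regions but were not listed. For adherens junctions and desmosomes, 11 of 25 genes had an end region (44.0%), which was 57.9% of the 19 with any region, and the median percentile of their regions was 94.2. Perp had 7, 3 and 7 sites 528 nt from its end and 5, 2 and 4 at 179 nt. Cdh1, the E-cadherin gene, had 6, 1 and 6 sites 85 nt from its end and 3, 3 and 3 at 757 nt. Both genes thus had a pair of regions, as did Dsc3, a desmocollin gene (156 and 973 nt), and Dsp, the desmoplakin gene (158 and 655 nt). In Dsp the region nearer the end was strong in each list, with scores of 153, 90.4 and 167, while the other reached only 0.458 in list 2. Reads of Dsg1a and its close copy Dsg1b, each with an end region, cannot be fully told apart, as the treatment of reads with several alignments is unstated.

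In the keratin and cornified envelope list 8 of 23 long spans had an end region (34.8%), 61.5% of the 13 with any region, with a median percentile of 94.2. Beside Flg2 and Krt15, Klk7, a kallikrein protease gene of the cornified layer, had 6, 3 and 4 sites at 388 nt and 2, 1 and 2 at 269 nt. Krt5, the basal keratin gene, had 3, 1 and 2 sites 58 nt from its end and 1 in each list at 513 nt. The single nucleotide at 513 nt carried the higher scores, 112, 75.2 and 112 against 57.0, 22.6 and 36.6. The remaining genes were Krt6a, Rptn, Tchh and Tgm1, and 11 further genes of the list have spans under 4000 nt and could not enter.

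Epidermal transcription factors had an end region in 9 of 27 long spans (33.3%), 60.0% of the 15 with any region, with a median percentile of 88.4. Grhl1, a grainyhead-like factor gene, had 3 of them, with 2, 1 and 1 sites at 773 nt, 6, 2 and 2 at 510 nt and 3, 1 and 1 at 122 nt from the end. Trp63, the p63 gene that sustains stratified epithelia, had 9, 3 and 6 sites at chromosome 16, 25891992 to 25892006, 89 nt from the end. Prdm1, a repressor gene, had 7, 3 and 4 sites at 168 nt and Fosl2, an AP-1 subunit gene, had regions at 220 and 336 nt. List 2 gave the fewest sites in Trp63 and Prdm1. Klf4, Tfap2c, Hopx, Klf3 and Barx2 made up the rest.

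Among genes of the translation machinery, 7 of the 18 listed ribosomal protein genes with long spans had an end region (38.9%). That was 77.8% of the 9 with any region, with a median percentile of 80.8. Rps4x had 5, 3 and 3 sites at 85 nt and 4, 2 and 4 at 701 nt from its end, Rplp0 6, 4 and 4 at 310 nt, Rps3 5, 3 and 4 at 274 nt and Rpl4 5, 2 and 2 at 183 nt. Processed copies of these genes elsewhere in the genome make their counts uncertain. Of the 27 listed translation factor genes with long spans 8 had an end region (29.6%, or 38.1% of 21 with any region, median percentile 76.4). Eif4b, an initiation factor gene, had 6, 5 and 4 sites only 50 nt from its end and Eif3a 5, 2 and 3 at 316 nt. Eef2, the elongation factor gene, had 3, 1 and 2 sites at 114 nt and 2, 1 and 1 at 154 nt.

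RNA-binding and splicing genes had an end region in 10 of 38 (26.3%, or 40.0% of 25 with any region, median percentile 83.2). Qk, the quaking splicing regulator gene, had 9, 4 and 6 sites at chromosome 17, 10207019 to 10207038, 557 nt from the end, and 2 in each list at 247 nt. Hnrnpf, an hnRNP gene, had 5, 2 and 5 sites at 77 nt and 7, 2 and 3 at 733 nt. Ddx5, an RNA helicase gene, had 7, 2 and 5 at 314 nt and Ewsr1 5, 2 and 5 at 643 nt. Of genes whose products themselves act on 3′ untranslated regions, Tia1, Pan3, Upf1 and Tnrc6b had one, 4 of 39 (10.3%, or 18.2% of 22 with any region, median percentile 63.4). Of 19 cleavage and polyadenylation genes with long spans none had an end region, and 8 had a region elsewhere.

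Of 36 genes known for ESRP-dependent exons, 28 had a region in all 3 lists and 5 had an end region (13.9%, or 17.9% of the 28, beside 5.19% and 25.1% over all genes, with a median percentile of 76.5). Beside Grhl1 these were Map3k7, a TAK1 kinase gene (7, 3 and 3 sites at 91 nt), Itga6, the hemidesmosomal integrin alpha 6 gene (2, 3 and 3 at 404 nt), Golga2, a Golgi matrix gene (3, 1 and 2 at 107 nt), and Fnip1. Ctnnd1, Cd44 and Fgfr2, listed as targets too, had no end region. Esrp1 and Esrp2 had none either.

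Signalling and scaffold lists lay between these. Receptor kinase and Ras signalling had 6 of 30 (20%, or 30% of 20 with any region, median percentile 84.5), led by Ddr1, a collagen receptor kinase gene (6, 4 and 6 sites at 122 nt), Mapk3, the ERK1 gene (6, 2 and 4 at 95 nt), Fgfr3 (4, 3 and 3 at 392 nt) and Nras (4, 2 and 4 at 247 nt). The Wnt, Hippo, Notch and BMP list had 6 of 32 (18.8%, or 46.2% of 13, median percentile 67.1), with Ctnnb1, Notch2, Lrp5 and Tead1 first by sites. Ctnnb1, the beta-catenin gene, had 4, 1 and 3 sites 671 nt from its end. Membrane and actin scaffolds had 8 of 26 (30.8%, or 50% of 16, median percentile 76.6), among them Anxa1 (6, 3 and 5 at 299 nt), Actb (8, 1 and 2 at 84 nt, also under the long noncoding gene Gm38733), Actr2 and Ahnak. The integrin and hemidesmosome list had Itga6 alone of 17 genes (5.88%, or 12.5% of 8 with any region). That was close to the 5.19% of all long spans and below the 25.1% of those with any region.

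Of the markers of other skin cells, a single gene had an end region. None was present in the 10 melanocyte genes, the 17 dermal fibroblast genes or the 13 endothelial and muscle genes with long spans. The immune list had 1 of 12, Csf1r, the macrophage colony-stimulating factor receptor gene, with 3, 2 and 2 sites at chromosome 18, 61130354 to 61130356, 784 nt from the end and scores of 220, 100 and 131. With 5.19% over all long spans, lists this short would hold few in any case. A region anywhere in the span was held by 1 melanocyte, 1 dermal fibroblast, 2 immune and 0 endothelial or muscle genes, so few could have one at the end. In the keratin and cornified envelope list 8 of 23 genes had an end region and 13 any region. For epidermal transcription factors it was 9 of 27, and 15 with any region. The epidermal label of the tissue was not tested by these lists. Fewer cells of a type and less RNA per cell cannot be told apart in these bulk libraries.

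**Figure D5:**
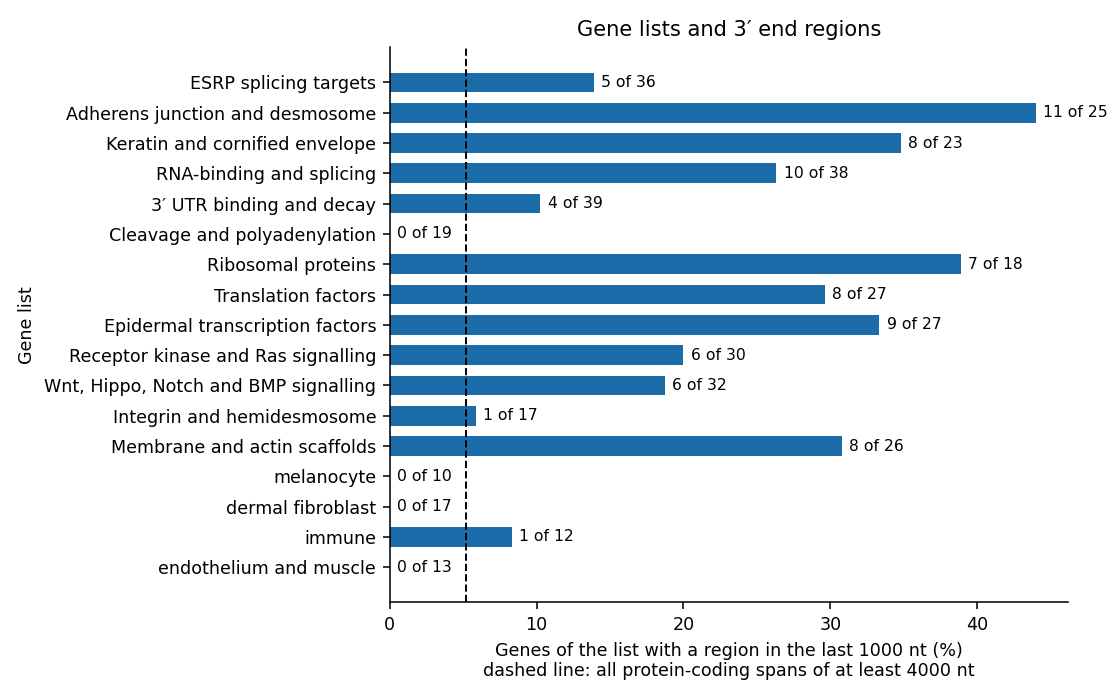
Share of the genes of each list with a region in the last 1000 nt (x axis, percent of spans of at least 4000 nt), with counts beside the bars. The dashed line is the 5.19% of all such protein-coding spans; the adherens junction and desmosome list stands highest at 44.0%, and the cleavage and polyadenylation list at 0 of 19.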

How the data were processed

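Libraries were eCLIP immunoprecipitates and inputs. The authors deposited 3 lists of strand-specific sites 1 nt wide, each with a score of unstated scale, called with input per the file headers. Tools listed in the submitters' processing notes, with no roles, are HISAT2 2.1.0, cutadapt 1.16 and HOMER, and the builds are mm10 and GRCm38. The caller and its settings were not given in the sources used here. Calling on 2 replicates together hides the spread between them, and aligners' choices among copies can move sites. Scores were compared between regions as ranks or percentiles within a list, and raw scores are given as deposited. Regions, positions (1-based) and gene spans used RefSeq GRCm38.p6, without exons, and strand came from the sites. The density profile used the strand of RefSeq promoter windows (decided after looking at the data), and bins inside a span counted length under no other protein-coding span. Held-out recurrence fixed regions from the other lists. Tests were exact sign-flip permutations over 3 lists, two-sided, and intervals are Clopper-Pearson, 95%. Python 3.11.15 with pandas 2.3.3, numpy 2.4.6 and scipy 1.17.1 was used, and the scripts were tested on simulated data.

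Members and gene lists were chosen with earlier results of these data known. Named genes were the 10 with most end regions (ties by sites), the 10 regions with the highest mean percentile, the 5 with most sites, the 5 nearest the end, 3 on either side of the limit, and up to 4 of each list by sites. Zfp512b, the other genes with 3 end regions, unbound list members and the remaining list members were named after their values were seen. So were genes named as outside the lists or as tied in sites. Alternatives changed the joining distance, window, span minimum, score, overlap, strand and lists. The sequence comparison planned for all regions was not run because no genome was used here. A further sequence is not reported here, for a reason unrelated to its letters or values.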

Additional observations from a re-analysis of the deposited data

How the results depend on the processing

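Of 96 values, for 8 results under 12 other settings each, 9 moved and 1 reversed. The count of end regions was judged by a fold limit. The share at ends, the ratio of last to first 1000 nt and the density past the end were set against their SD over lists. For the differences from interior regions only the sign was judged, and their size changed more. The same-nucleotide difference fell from 1.72 to 0.050 points with the 50% of sites with the highest scores. Window size moved the counts by construction: the last 500 nt held 697 regions (11.6% of regions in long spans, 1.58 times the first 500 nt), and the last 2000 nt held 1692 (28.2%, 2.66 times the first 2000 nt). The 50% of sites with the highest scores gave 704 end regions, with fewer sites to join. When each list was left out in turn, the count ran from 1233 to 1823 (highest without list 2), the share of regions at ends from 15.8% to 19.4%, the ratio of last to first 1000 nt from 1.96 to 2.41 (2.14 with all lists), and the density past the end relative to the last 1000 nt from 0.0458 to 0.0641 (0.0444 with all lists). The difference in sites per region from interior regions ran from -0.14 to 0.042 and was reversed only without list 3; the cause was not tested. Left-out lists gave held-out differences of 7.31 to 10.1 points, from regions of a single list, score differences of 0.46 to 2.88 percentile points and same-nucleotide differences of 0.53 to 1.93 points. All other alternatives kept direction and, with a smallest p of 0.25, none could pass. No paired analysis was possible because each list was called on 2 replicates together and input values were not analysed here. Unknown depth limits every comparison between lists.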

Other observations

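Of the end regions with a RefSeq strand, 7 lay on the strand opposite to their gene, so that they sit near its annotated 5′ end, antisense. They were in Chaf1a (72 nt from the span end, 11 sites over the lists), Letmd1 (64 nt, 12 sites), Nova2 (153 nt, 9 sites), Prkacb (58 nt, 13 sites), Tmprss5 (95 nt, 6 sites), Ctrb1 (761 nt, 12 sites) and Stag1 (825 nt, 7 sites). Nova2, a neuronal splicing regulator gene, had a mean score percentile of 93.0 there. Past the annotated 3′ ends, 33 regions found in all 3 lists lay within 1000 nt in length free of genes, against 19 within 1000 nt before the 5′ ends, of which 11 were in the 100 nt next to the end. In 3 end regions, in Styx, Ugt3a1 and Kdm2b, a list's series of scores was repeated exactly in another region (0.276% of end regions, against 0.25% of interior regions and 0.404% of all regions found in 3 lists).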
